A study of Mus musculus with 2 samples.

Results

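The fibroblast growth factor (FGF) receptor genes were described across the 2 libraries of a mouse stomach series: Fgfr1, Fgfr2, Fgfr3 and Fgfr4, which code for receptor tyrosine kinases, and Fgfrl1, a relative that binds FGFs and lacks the kinase. The members were taken by gene symbol, which gave 5 of 43346 genes and, with all their annotated transcripts, 58 of 103639 transcripts. RNA came from stomachs of B6NCrl embryos at 14.5 days of gestation (E14.5), each library from the whole stomach of 1 pup, and the libraries are biological replicates 1 and 2 of 1 group. No second condition was studied, so no comparison between conditions and no p-value was possible. The labels give the sex as a pool of both sexes, although each library held the organ of a single pup and sex-linked genes differed between the libraries. The stomachs were collected on different days, so the effects of day, embryo, sex and library cannot be told apart. The libraries started from 10 ng of RNA longer than 200 nucleotides, with added spike-in RNAs, and a Smart-seq protocol is linked to them.

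An FGF receptor has up to 3 immunoglobulin-like domains outside the cell, an acidic stretch between domains I and II, a membrane-spanning helix and a split tyrosine kinase inside the cell. In Fgfr1, Fgfr2 and Fgfr3 the second part of domain III is coded by either of a pair of mutually exclusive exons, IIIb or IIIc, and this choice sets which FGFs bind. In developing gut and in branching organs, the IIIb form of Fgfr2 is known from epithelium, where it binds Fgf7 and Fgf10 made by mesenchyme. There IIIc forms are known from mesenchyme.

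Exons of this kind are shown because the assignment of transcripts to a receptor form rests on them. In the GRCm38 (mm10) assembly the Fgfr3 pair lies on the plus strand at chr5:33731281-33731431 (IIIb, 151 bases) and chr5:33732117-33732261 (IIIc, 145 bases). The IIIb exon of Fgfr2 lies on the minus strand at chr7:130199758-130199905 (148 bases), and Fgfr4 has a single coding exon at this place, chr13:55160249-55160387 on the plus strand (139 bases). All were read 5′ to 3′ from the GENCODE M21 transcript sequences. Capitals mark the bases that the IIIb exons of Fgfr2 and Fgfr3 share in a MAFFT alignment (77 bases), and those that the IIIc exon of Fgfr3 and the Fgfr4 exon share (99 bases):
Fgfr2 IIIb: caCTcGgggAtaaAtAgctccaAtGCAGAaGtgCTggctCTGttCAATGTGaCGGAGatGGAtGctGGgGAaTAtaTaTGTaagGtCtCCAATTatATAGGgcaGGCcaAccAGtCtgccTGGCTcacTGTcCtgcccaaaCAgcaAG
Fgfr3 IIIb: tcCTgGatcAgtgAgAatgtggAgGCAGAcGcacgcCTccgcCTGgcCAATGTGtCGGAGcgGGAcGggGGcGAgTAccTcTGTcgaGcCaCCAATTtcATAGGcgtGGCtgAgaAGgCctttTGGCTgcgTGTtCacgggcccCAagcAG
Fgfr3 IIIc: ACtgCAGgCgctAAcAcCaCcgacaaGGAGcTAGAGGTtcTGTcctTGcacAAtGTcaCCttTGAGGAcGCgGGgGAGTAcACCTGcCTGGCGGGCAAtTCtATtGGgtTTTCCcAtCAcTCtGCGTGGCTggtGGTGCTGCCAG
Fgfr4 exon: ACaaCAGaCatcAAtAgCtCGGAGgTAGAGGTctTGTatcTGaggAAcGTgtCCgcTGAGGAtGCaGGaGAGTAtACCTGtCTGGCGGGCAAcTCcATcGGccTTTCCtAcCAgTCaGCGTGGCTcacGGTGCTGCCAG

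The Fgfr4 exon was closer to IIIc than to IIIb. In pairwise alignments it was identical to Fgfr3 IIIc at 68.3% of aligned positions, to Fgfr3 IIIb at 50.7% and to Fgfr2 IIIb at 59.5%. The IIIb exons of Fgfr2 and Fgfr3 were identical at 54.8%, near the 50.6% of IIIb against IIIc within Fgfr3. Fgfr2 IIIb was identical to Fgfr3 IIIc at 55.5%, so it was no closer to IIIb than to IIIc of Fgfr3. Each of these exons leaves a remainder of 1 base when divided into codons, so exchanging IIIb for IIIc in Fgfr3 keeps the reading frame.

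The libraries held 25072242 (replicate 1) and 25599910 (replicate 2) expected counts, of which 23668322 and 23882647 fell on genes and 0.0412% and 0.0417% of the latter on the 5 receptors. The stomach identity markers were detected in full (6 of 6, among them Barx1 and Cym), lung markers were not detected (0 of 4, with Nkx2-1 and Sftpb at 0), and 5 of 6 liver markers were detected (summed TPM 82.0 and 79.2, of which Apoa1 had 55.49 and 51.73). Within the liver list, Alb (1.34 and 3.51 TPM), Afp (4.81 and 6.69 TPM) and Ahsg (0.13 and 0.89 TPM) were higher in replicate 2. Ttr (18.49 and 15.32 TPM) and Serpina1a (1.77 and 1.02 TPM) were lower in replicate 2, like Apoa1. Pancreas markers differed, with a summed TPM of 454 in replicate 1 and 6.47 in replicate 2 over 7 genes. Sex-linked genes differed as well: Xist had 13.5 counts in replicate 1 and 32038 in replicate 2, and the 4 Y-linked genes had 1256 to 2550 counts against 0 to 2. This is the pattern of a male in replicate 1 and of a female in replicate 2, unlike the pooled label. The part of any of these differences in the receptor values was not tested.

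All 5 receptor genes were detected, meaning at 1 TPM or more (a level corrected for transcript length, as a share of all transcripts) in both libraries, against 34.9% of all genes. Fgfr2 was the most abundant, followed by Fgfr1, Fgfr3, Fgfrl1 and Fgfr4, in the same order in both libraries. No neighbours in this order overlapped between the libraries, nor did their deposited intervals overlap within a library. The receptors summed to 199.45 TPM in replicate 1 and 193.03 TPM in replicate 2. In whole-organ RNA, fewer cells of a type and less RNA per cell cannot be told apart.

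**Figure D1:**
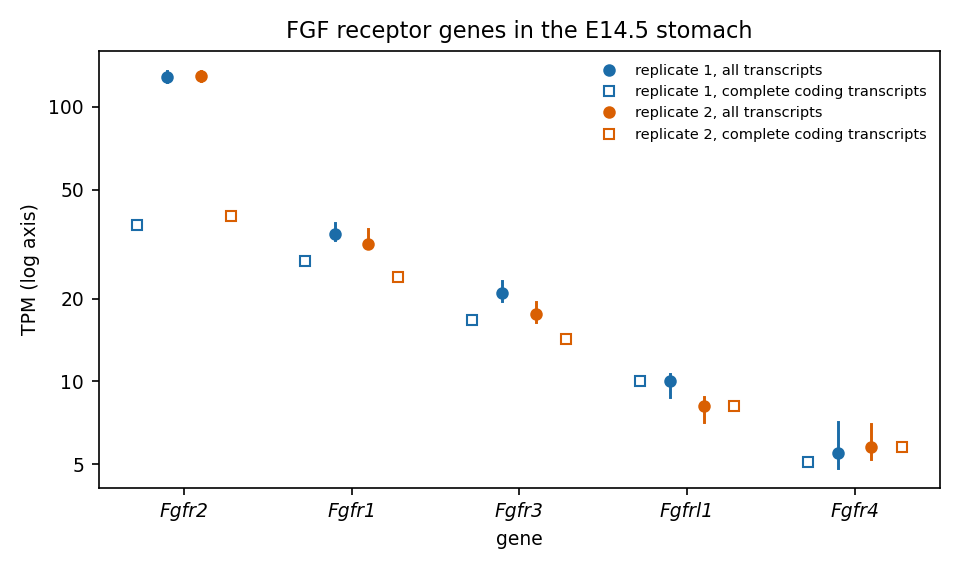
TPM (log axis) of the 5 FGF receptor genes in each library; filled circles are gene totals, vertical lines the deposited intervals, and open squares the sum over complete coding transcripts, leaving out the Fgfr2 transcript that starts on Ctbp2 exons. Fgfr2 sits near 129 TPM and falls to 37.2 and 39.9 TPM on complete coding transcripts, the widest gap of the 5 genes.

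Fgfr2 (chr7, minus strand) stood at 128.46 TPM in replicate 1 and 129.84 TPM in replicate 2, a mean of 129 ± 0.976 (SD, n = 2). This level was above that of 92.8% of detected genes, whose median was 15.7 TPM, and was 65.8% ± 2.02 (SD, n = 2) of the summed TPM of the 5 receptors. It rested on 5667.92 and 6041.73 expected counts. Fgfr2 stood above Fgfr1 by 3.72-fold in replicate 1 and 4.09-fold in replicate 2, and above Fgfr4 by 23.4-fold and 22.6-fold.

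Much of this Fgfr2 level was assigned to transcripts that are not annotated with the coding sequence of a whole receptor. The most abundant Fgfr2 transcript, ENSMUST00000124096, took 32.2% and 31.7% of the gene's TPM (41.33 and 41.15 TPM). Its coding sequence has only 546 bases, holds neither IIIb nor IIIc, and lies in 5 exons at the 3′ end of the gene that other Fgfr2 transcripts share. Its other exons, chr7:133123141-133123350 and chr7:133081757-133081860, are in no other Fgfr2 transcript, and all their 314 bases lie on exons of Ctbp2, a transcriptional corepressor gene on the same strand. These distant exons also stretch the annotated Fgfr2 locus to chr7:130162451-133123350. Ctbp2 itself stood at 88.57 and 88.08 TPM (2505 and 2676 counts), and how many reads of this transcript came from Ctbp2 was not tested. Of the 2425 bases of ENSMUST00000124096, only 314 are in no other Fgfr2 transcript. How many of its reads came from other Fgfr2 transcripts was not tested either.

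Without that transcript Fgfr2 stood at 87.14 and 88.71 TPM, which is 2.52-fold and 2.80-fold above Fgfr1. Counting only complete coding transcripts that hold an exon of the pair, Fgfr2 stood at 37.2 TPM in replicate 1 and 39.92 TPM in replicate 2, against 27.47 and 24.05 TPM for Fgfr1. The lead of Fgfr2 over Fgfr1 was then 1.35-fold and 1.66-fold, still without overlap of the libraries, and the order of the 5 genes was as before.

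The rest of Fgfr2 was assigned to transcripts annotated as unspliced, incomplete or bound for decay. Transcripts annotated with a retained intron, which keep unspliced sequence and have no annotated coding sequence, took 18.8% ± 0.130 (SD, n = 2) of its TPM, led by ENSMUST00000130557 at 11.2% and 7.88% and ENSMUST00000148675 at 3.20% and 5.83%. In no other Fgfr2 transcript are 76 of the 790 bases of ENSMUST00000130557 and 318 of the 656 bases of ENSMUST00000148675. How many of their reads came from other Fgfr2 transcripts was not tested. Transcripts with an incomplete coding sequence took 10.0% ± 0.510 (SD, n = 2). Of these, the IIIb transcript ENSMUST00000118296 took 4.95% in replicate 1 and 10.4% in replicate 2, a share that moved between the libraries against another incomplete IIIb transcript listed at 6.04 and 0 TPM. ENSMUST00000153166, annotated for nonsense-mediated decay (the destruction of RNAs with an early stop), took 10.5% and 8.27%. It holds neither exon of the pair.

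The complete coding Fgfr2 receptor was found as 1 IIIb and 1 IIIc transcript. The IIIc transcript ENSMUST00000117872 stood at 23.29 and 26.23 TPM, and the IIIb transcript ENSMUST00000120187 at 13.91 and 13.69 TPM. The IIIb share of complete coding TPM with an exon of the pair was 37.4% in replicate 1 and 34.3% in replicate 2 (mean 35.8% ± 2.19, SD, n = 2). Only about 154 and 175 of the counts on these transcripts would overlap the exon pair, which gives exact 95% binomial intervals of 29.99% to 45.8% and 27.3% to 41.8%; such intervals cover counting error only. With incomplete coding transcripts included, the IIIb share was 53.0% and 50.9%, so which form led depended on the transcripts counted. The IIIb transcript had 3053 bases in the deposited annotation and has 4311 in GENCODE M21, whereas the IIIc transcript has 4223 in both.

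Both abundant Fgfr2 receptor transcripts were short forms. All complete coding TPM with the exon pair (100% in both libraries) lacked the 267-base exon of immunoglobulin domain I and the 78-base acid box exon, and the long IIIc transcript that holds both was at 0 TPM. For this long transcript, ENSMUST00000122054, the deposited intervals ran from close to 0 to 2.83 TPM in replicate 1 and 1.63 TPM in replicate 2. The 78-base exon was present in the incomplete coding transcripts, at 12.4 and 13.47 TPM. Among the named transcripts, the domain I exon was in ENSMUST00000153166, the transcript annotated for decay. It had 983 and 832 expected counts but 0 bases that no other Fgfr2 transcript holds. The split of domain I reads between it and the long receptor transcript is thus an estimate.

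Splice sites a few bases apart at the end of an exon downstream of the pair also divided Fgfr2. Of complete coding TPM with the pair, 62.6% and 65.7% used a 197-base exon and 37.4% and 34.3% a 203-base exon. These shares mirror IIIc and IIIb, because the abundant IIIc transcript carries the short exon and the IIIb transcript the long exon. With incomplete coding transcripts included, the 203-base exon took 40.9% and 50.9%, against IIIb shares of 53.0% and 50.9%. The 6 extra bases are in capitals at the end of this stretch, chr7:130196172-130196201 on the minus strand:
Fgfr2 exon end: aagcgcatccccctgcggagacagGTAACA

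**Figure D2:**
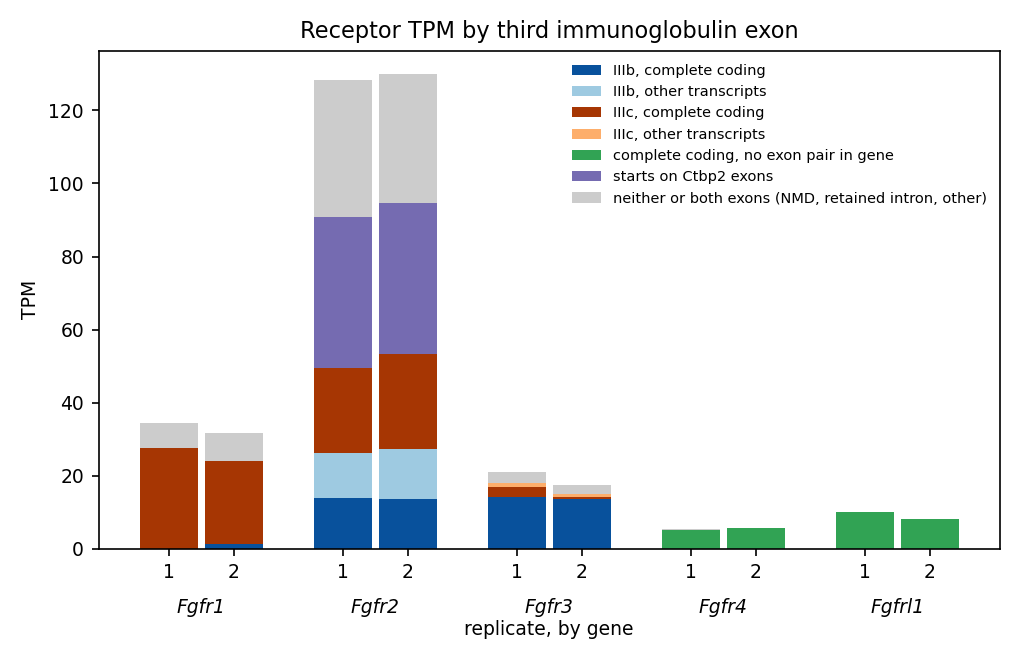
TPM of each receptor gene in replicates 1 and 2, stacked by exon of domain III and kind of transcript; NMD stands for nonsense-mediated decay. Fgfr1 is mostly IIIc (27.47 and 22.74 TPM), with 6.24 and 6.53 TPM on transcripts that hold neither exon. Fgfr2 holds both forms under a large block on the transcript that starts on Ctbp2 exons, and Fgfr3 is mostly IIIb.

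Fgfr1 (chr8:25513654-25575718, plus strand), whose IIIc form is the classical mesenchymal receptor, stood at 34.54 TPM in replicate 1 and 31.76 TPM in replicate 2 (mean 33.2 ± 1.97, SD, n = 2; 2130 and 2084 counts). Complete coding transcripts took 77.7% ± 2.66 (SD, n = 2) of this level. They held the IIIc exon nearly throughout, at 27.47 and 22.74 TPM. The IIIb exon was listed at 0 TPM in replicate 1 and at 1.31 TPM in replicate 2. Its share was thus 0% and 5.45%, with exact 95% intervals of 0% to 3.21% (113 estimated counts on the pair) and 2.13% to 12.0% (105 estimated counts). By the separate limit of 3 counts for a count of 0, the share in replicate 1 could be up to 2.65%. For the IIIb transcript of replicate 2, ENSMUST00000178276, the deposited interval ran from close to 0 to 1.42 TPM, so an Fgfr1 IIIb form could not be told from 0 by that interval.

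Unlike Fgfr2 in these estimates, Fgfr1 carried domain I in most of its complete coding TPM. The 267-base exon was present in 73.5% and 66.3% and absent in 25.6% and 33.0%. The leading transcripts were ENSMUST00000117179 with domain I (42.5% and 31.03% of the gene's TPM), ENSMUST00000119398 without it (20.3% and 20.9%) and ENSMUST00000084027 with it (15.9% and 19.2%). In GENCODE M21 the last exon has 1037 bases in ENSMUST00000117179 and 1974 bases in ENSMUST00000084027. The former has 0 bases that no other Fgfr1 transcript holds, so the split between them is an estimate. Their coding sequences differ in a 6-base choice at the end of the exon after domain I. There 45.5% and 52.9% of complete coding TPM used the longer, 90-base form. These 6 bases are in capitals at the end of this stretch, chr8:25557791-25557820 on the plus strand:
Fgfr1 exon end: agacggacaacaccaaaccaaaccGTAGGC

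Retained introns took 18.7% ± 2.59 (SD, n = 2) of Fgfr1 TPM. The largest, ENSMUST00000126118, took 11.5% in replicate 1 and 13.6% in replicate 2. Its opening exon runs without splicing from inside the IIIb exon through the intron to the end of IIIc, so it was counted in neither form. An antisense gene that overlaps Fgfr1 exons, Gm16159, had 0 counts in both libraries.

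Fgfr3 (chr5:33721674-33737068, plus strand), a receptor best known from cartilage and also made by epithelia, stood at 20.91 TPM in replicate 1 and 17.55 TPM in replicate 2 (mean 19.2 ± 2.38, SD, n = 2; 1249 and 1132 counts). It was 1.65-fold and 1.81-fold below Fgfr1 and 2.08-fold and 2.16-fold above Fgfrl1. Complete coding transcripts took 80.8% ± 0.716 (SD, n = 2).

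Fgfr3 was mostly of the IIIb form. Its 2 IIIb transcripts, ENSMUST00000171509 (40.8% and 56.7% of the gene) and ENSMUST00000114411 (26.5% and 20.9%), have the same coding sequence of 2406 bases and together stood at 14.07 and 13.61 TPM. IIIc transcripts stood at 2.71 and 0.65 TPM, and the largest of them, ENSMUST00000169212, was listed at 1.68 and 0 TPM. The IIIb share was 83.9% and 95.4% (mean 89.6% ± 8.20, SD, n = 2). Exact 95% intervals were 73.6% to 91.9% on 70 estimated counts and 86.9% to 99.02% on 64 estimated counts, which overlap. Counting all transcripts gave 78.3% and 90.3%, because the retained intron transcript ENSMUST00000132724 (5.68% and 4.64% of the gene) holds IIIc.

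Other choices in Fgfr3 were close to uniform. A 54-base exon, found between the exons for domains I and II, was present in 99.5% and 98.3% of complete coding TPM. Retained introns took 18.8% ± 0.0735 (SD, n = 2), led by ENSMUST00000134610 at 8.46% and 11.5%. Exons of 7 Fgfr3 transcripts overlap the antisense gene G630022F23Rik, which was not analysed here; whether counting used strand is not stated, so reads of the pair cannot be told apart.

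**Figure D3:**
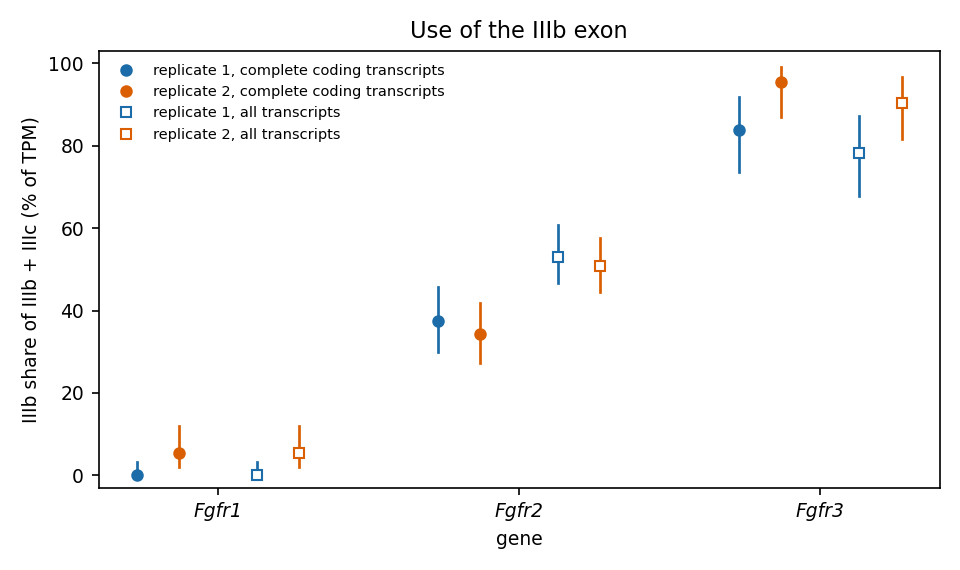
Share of the IIIb exon in the TPM of transcripts that hold exactly 1 exon of the pair, per gene and library. Vertical lines are exact 95% binomial intervals on the counts estimated to overlap the pair. Fgfr1 lies at 0% and 5.45%, Fgfr2 at 37.4% and 34.3% for complete coding transcripts and at 53.0% and 50.9% for all transcripts, and Fgfr3 at 78.3% or more.

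The 3 genes thus ranked Fgfr1, Fgfr2, Fgfr3 by IIIb share. Neither the libraries nor the exact intervals of neighbours overlapped, with complete coding or with all transcripts. Summed over the 3 genes' complete coding transcripts, IIIb came from Fgfr2 and Fgfr3 in nearly equal amounts (13.91 and 14.07 TPM in replicate 1, 13.69 and 13.61 TPM in replicate 2), and IIIc from Fgfr1 and Fgfr2 (27.47 and 23.29 TPM, then 22.74 and 26.23 TPM). Over all transcripts with 1 exon of the pair, the IIIb level of Fgfr2 was higher, at 26.31 and 27.16 TPM, while that of Fgfr3 was still 14.07 and 13.61 TPM.

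Fgfrl1 (chr5:108692382-108706924, plus strand) stood at 10.04 TPM in replicate 1 and 8.13 TPM in replicate 2 (mean 9.09 ± 1.35, SD, n = 2; 416 and 357 counts). All of it lay on complete coding transcripts. ENSMUST00000013633, which holds a 273-base coding exon, took 63.9% and 62.5%, and ENSMUST00000112560, which lacks it, took 36.2% and 37.5%.

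Fgfr4 (chr13:55152640-55168759, plus strand), which has no IIIb and IIIc pair and is best known as the liver receptor for endocrine FGFs, was the lowest, at 5.50 TPM in replicate 1 and 5.75 TPM in replicate 2 (mean 5.63 ± 0.177, SD, n = 2; 279 and 332 counts). It stood above 26.8% of detected genes. Its only coding transcript, ENSMUST00000005452, took 92.1% and 100%, and a retained intron transcript, ENSMUST00000162167, the remaining 7.87% in replicate 1.

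The libraries differed little in these genes. As log2 of replicate 2 over replicate 1 of scaled counts, a difference and not a level, Fgfr2 was at 0.07 (95% counting interval 0.02 to 0.12), Fgfr1 at -0.05 (-0.14 to 0.03) and Fgfr3 at -0.16 (-0.28 to -0.05). Fgfrl1 was at -0.24 (-0.45 to -0.04) and Fgfr4 at 0.23 (-0.01 to 0.46). None of the 5 was over 2-fold apart, against 0.298% of genes that averaged 100 counts or more (38 of 12761), for which the median absolute log2 ratio was 0.10 and the 95th percentile 0.38. All 5 were inside that percentile. With library sizes taken from the spike-ins instead, each log2 ratio dropped by 0.27, to -0.20 for Fgfr2 and -0.04 for Fgfr4, so the sign of these ratios holds only relative to the typical gene. Epithelial markers had a median log2 ratio of -0.12 (7 of 7 detected, summed TPM 2005 and 1761), stratified epithelial markers -0.27 (4 of 4, 378.6 and 285.2) and mesenchymal markers 0.04 (6 of 6, 3172 and 2978); their part in the receptor ratios was not tested.

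**Figure D4:**
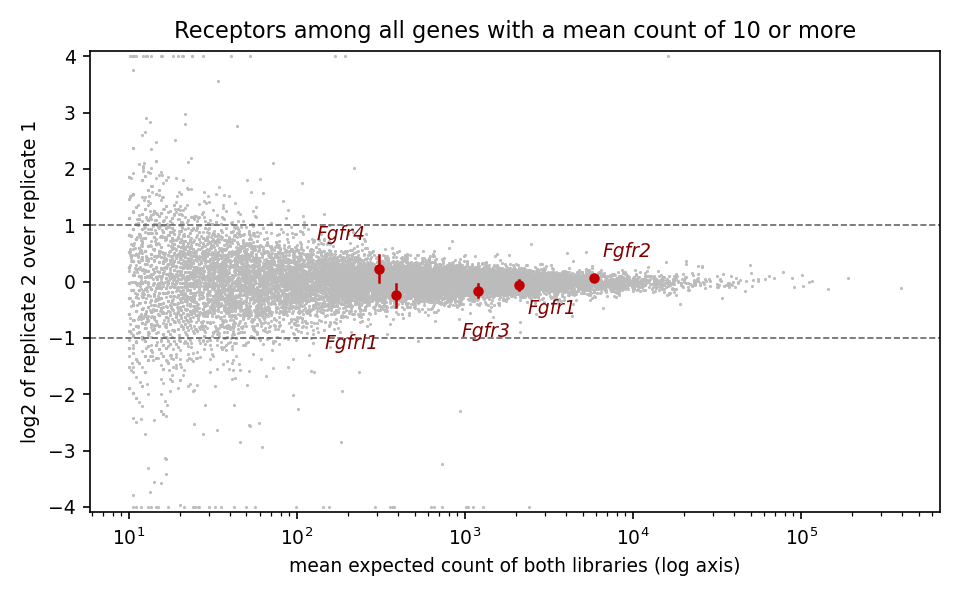
Log2 of replicate 2 over replicate 1 against the mean expected count (log axis), with genes that averaged 10 counts or more in grey, the receptors in red with 95% counting intervals and dashed lines at 2-fold; values beyond 4 are drawn at the edge. The receptors lie between -0.24 and 0.23, inside the cloud of other genes.

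The ligands of the IIIb forms were present at low levels. Of 5 listed, 3 were detected: Fgf10 at 9.35 and 10.28 TPM, Fgf7 at 4.79 and 3.18 TPM, and Fgf1, which binds every receptor form, at 3.03 and 2.70 TPM. Fgf3 and Fgf22 had 1 count in each library. Of 10 other paracrine ligands 5 were detected, led by Fgf9 at 9.67 and 9.81 TPM, Fgf18 at 2.81 and 2.09 TPM and Fgf20 at 2.58 and 1.73 TPM. These 3 are known to prefer IIIc forms or Fgfr3. Each detected ligand was thus below the level of Fgfr2, Fgfr1 and Fgfr3 and, except for Fgf10 and Fgf9, below that of all receptors.

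Endocrine FGFs, which need a Klotho protein at the receptor, were not detected (0 of 5 genes with the coreceptors). Klb, the coreceptor that Fgfr4 uses for the endocrine ligands of bile acid control, had 0.23 TPM in replicate 1 and 0.03 TPM in replicate 2 (13 and 2 counts).

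The relays and targets of the receptors were all detected. Of 9 adaptors and relays, Shc1 (55.54 and 50.45 TPM), Plcg1 (36.60 and 33.41 TPM) and Grb2 (39.58 and 27.57 TPM) were highest. Frs2, the docking protein bound to the receptors, is on this list, whose lowest member, Frs3, had a mean of 3.51 TPM. Of 9 targets and feedback inhibitors of the ERK kinase pathway, Spry2 led at 49.59 and 48.34 TPM. The ERK phosphatase Dusp6 stood at 30.44 and 29.30 TPM, and the FGF-responsive transcription factors Etv5 and Etv4 at 14.71 and 13.02 TPM and at 6.87 and 6.38 TPM. Spry1 followed Dusp6, with a mean of 13.955 TPM.

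Heparan sulfate chains, which hold FGF and receptor together, were represented by 18 of 19 genes for core proteins and enzymes. Gpc3 (615.1 and 552.6 TPM) and Sdc1 (97.44 and 81.58 TPM) were the highest core proteins, and Sulf2, an enzyme that removes sulfate from the chains, stood at 214.4 and 207.1 TPM.

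Factors known to steer the choice of IIIb or IIIc were all detected (11 of 11). Esrp1 and Esrp2, epithelial proteins that favour IIIb of Fgfr2, stood at 38.77 and 32.81 TPM and at 26.83 and 22.06 TPM. The more general factors Hnrnpa1 (617.5 and 632.9 TPM), Hnrnpm (247.0 and 221.7 TPM) and Ptbp1 (201.7 and 173.4 TPM) were the highest. In all, 55 of 68 listed genes of the pathway were detected, against 34.9% of all genes. None of the listed genes that averaged 100 counts or more was over 2-fold apart between the libraries, against 0.298% of all genes at that count.

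**Figure D5:**
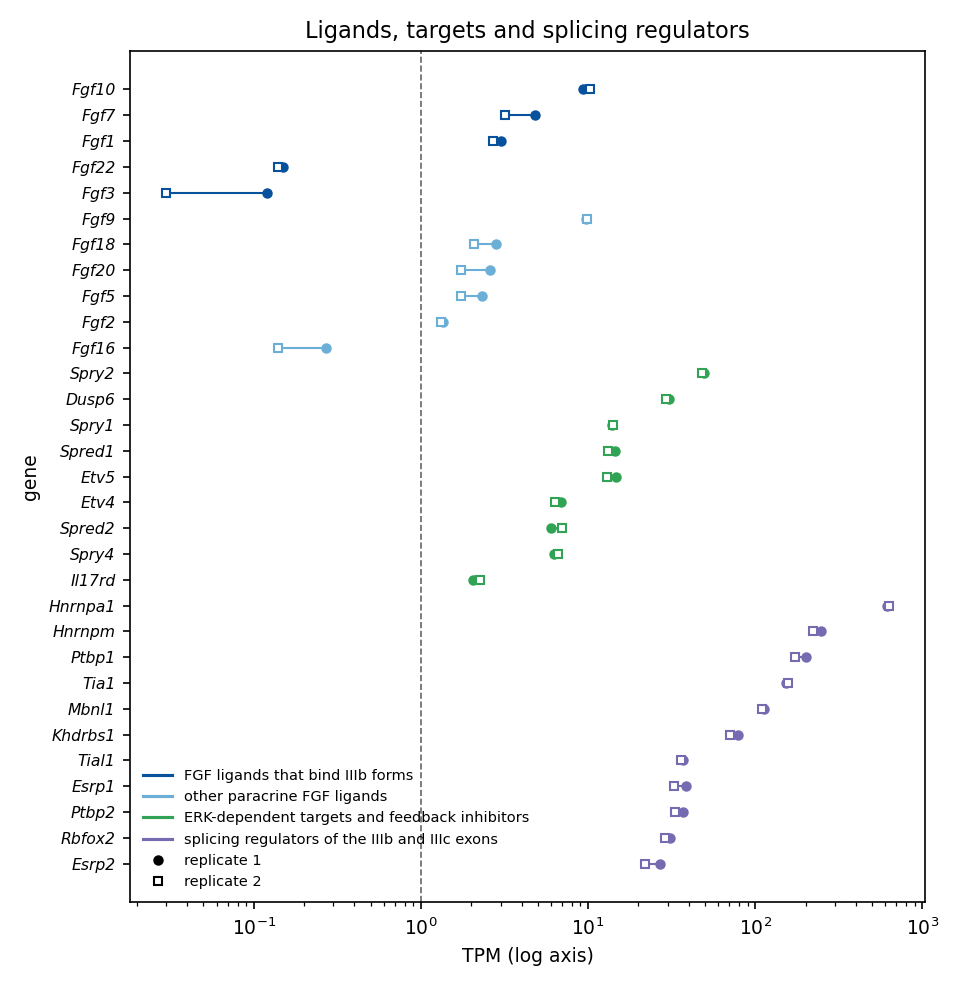
TPM (log axis) of ligands, targets and splicing regulators in replicate 1 (filled circles) and replicate 2 (open squares), joined by a line; genes at 0 in either library are not drawn, and the dashed line marks 1 TPM. Fgf10 and Fgf9 lie near 10 TPM, below Spry2 and Dusp6, and the splicing regulators lie at 22.06 TPM or more.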

How the data were processed

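Genes and transcripts were profiled by RNA-seq in 2 libraries of 1 group. The authors used mm10 with GENCODE M4, per their notes and the labels. The sources used here do not name the aligner or the counter, nor the use of strand. The authors deposited expected counts (reads shared by genes or transcripts are split by estimate, so transcript values rest on few distinguishing bases), TPM and FPKM (both scaled over all entries, spike-ins included), a posterior mean TPM, interval bounds whose level is not stated, and percent values for each transcript's share of its gene.

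Symbols and exons came from GENCODE M21, same assembly: 42462 of 43346 genes matched a symbol, all 58 receptor transcripts were found and 50 had the same length. Of the 58, 20 had 0 counts in both libraries and 20 reached 5% of their gene in either library; these 20 were named, with the 3 highest genes of each list and 10 others fixed by name. Any further gene or transcript in the text, such as Ctbp2, Frs3 or ENSMUST00000178276, was picked after its values were seen. Members and lists were chosen with earlier results of these data known.

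A pair was the mutually exclusive coding exons of similar place after a shared 191-base exon, IIIb being upstream. Counts on a pair are transcript counts times the share of read positions that overlap it, for reads of 100 bases as the effective lengths imply. The sequences of some exons of the pairs are not reported here. Exons were aligned with Biopython 1.88 and MAFFT 7.526. Ratios used TMM library sizes (edgeR 4.0.16, R 4.3.3) and 0.5 added to each count, and were tested on simulated data. A count of 0 allows 3 counts. Alternatives were DESeq2 1.42.0 size factors, spike-in scaling, FPKM, posterior means, other filters and each library alone. Scripts ran in Python 3.11.15 (scipy 1.17.1, pandas 2.3.3, numpy 2.4.6, matplotlib 3.10.9).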

Additional observations from a re-analysis of the deposited data

How the results depend on the processing

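No paired analysis was possible because the libraries form 1 group. The order of the 5 receptors and the number detected held under every alternative tried. Rescaling TPM without spike-ins gave 148.8 for Fgfr2, 38.2 for Fgfr1, 22.1 for Fgfr3, 10.5 for Fgfrl1 and 6.48 for Fgfr4. Leaving out mitochondrial genes and numbered entries too gave 155.0, 39.8, 23.1, 10.9 and 6.75 in the same order. The posterior mean put Fgfr4 at 6.0 TPM. Further alternatives were chosen after the data were seen. Complete coding transcripts alone gave mean levels of 25.8 TPM for Fgfr1, 15.5 for Fgfr3 and 5.41 for Fgfr4. For Fgfr2 they gave 38.6 TPM, with the complete coding transcript on Ctbp2 exons also left out. With only that transcript left out, Fgfr2 stood at 87.9 TPM. Spike-in library sizes moved the log2 ratios to -0.20 (Fgfr2), -0.32 (Fgfr1), -0.43 (Fgfr3), -0.51 (Fgfrl1) and -0.040 (Fgfr4), and the ratio of TPM put Fgfr2 at 0.015. The number of genes over 2-fold apart was 38 as reported, 63 with spike-in library sizes, 631 among genes averaging 10 counts or more and 5064 with no filter. The IIIb share of Fgfr2, 35.8% as a mean, was 28.6% from expected counts and 52.0% with all transcripts, or with complete and incomplete coding transcripts, that hold 1 exon of the pair. Expected counts are not divided by length, and the effective length was 2954 bases for the IIIb transcript and 4124 for the IIIc transcript. The incomplete coding transcripts added IIIb at 12.4 and 13.47 TPM and left IIIc at 23.29 and 26.23 TPM. The causes of the other moves were not tested. For named transcripts, 17 of 32 alternative shares stayed within 1 SD of the libraries and 15 moved by more. Some of these alternatives are shares among complete coding transcripts, a smaller total by which a share can only stay or rise. Depth limits the exon shares, with 64 to 235 estimated counts on a pair in a library. It also limits the rarest transcripts and ligands, some of which rest on fewer counts.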

Other observations

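Other receptor tyrosine kinases, the class of growth factor receptors to which Fgfr1 to Fgfr4 belong, were all detected (18 of 18 listed). Of all genes, 34.9% were detected. The highest were Kit, the receptor of pacemaker cell precursors in the gut, at 54.59 TPM in replicate 1 and 48.59 TPM in replicate 2, Ddr2, a collagen receptor, at 45.55 and 42.91 TPM, and Pdgfra at 39.55 and 38.97 TPM. The gene total of Fgfr2 was above the gene totals of all 18, and was so too without the transcript on Ctbp2 exons (87.14 and 88.71 TPM). Levels on complete coding transcripts were not computed for the 18 genes, so the corresponding Fgfr2 level was not set beside them. Ntrk3 was the lowest of the list, with a mean of 3.87 ± 1.04 TPM (SD, n = 2). None of the 18 was over 2-fold apart between the libraries, against 0.298% of all genes that averaged 100 counts or more.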
